A study of Homo sapiens with 4 samples.

Results

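The 10 histone acetyltransferase genes EP300, CREBBP, KAT2A, KAT2B, KAT5, KAT6A, KAT6B, KAT7, KAT8 and HAT1 were examined in B-CPAP cells, a line from a papillary thyroid carcinoma, with knockdown of lactate dehydrogenase A (LDHA). They were the rows whose gene name equals 1 of these symbols, 10 of the 59108 rows of the table, with 1 row for each symbol. All 10 were among the 13291 rows that passed a filter of at least 0.5 FPKM in at least 2 libraries and were tested. RNA-Seq was performed on 4 libraries of total RNA, 2 from cells that carried an shRNA against LDHA (shLDHA) and 2 from control cells with an shRNA against GFP (shGFP). According to the methods, the LDHA hairpins were delivered by lentivirus and infected cells were selected with puromycin. Which hairpin sequences were used, the time of harvest, and whether the 2 libraries of a group came from separate cultures are not given in the sources used here, so every p-value reflects the scatter among 4 libraries that may be technical repeats. The study asked how LDHA bears on acetyl-CoA and histone acetylation, and the comparison here asks whether the RNA of the enzymes that write this mark differed after the knockdown.

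Histone acetyltransferases move the acetyl group of acetyl-CoA onto lysines of the histones, which loosens chromatin and makes binding sites for bromodomain proteins, and histone deacetylases remove it. EP300 and CREBBP are a pair of related coactivators that acetylate, among other lysines, H3K27 at enhancers and promoters. KAT2A and KAT2B belong to the GNAT family and work on H3K9 within SAGA and ATAC. KAT5, KAT6A, KAT6B, KAT7 and KAT8 share the MYST domain and work in complexes with partner subunits, and HAT1 acetylates newly made H4 before it enters chromatin. These enzymes were not measured as proteins here, and the activity of none of them follows from its RNA.

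LDHA RNA was checked first. LDHA had 175.53 and 167.8 FPKM (fragments scaled by transcript length and sequencing depth, as deposited) in the shLDHA libraries, against 1186.37 and 1183.12 FPKM in the shGFP libraries, which is in the direction of the labels in both shLDHA libraries. Its log2 fold change was -2.45 ± 0.08 (SE, limma, adjusted p = 0.00786). The libraries held an estimated 19600000 and 26600000 fragments in shLDHA and 22600000 and 23600000 in shGFP, as read from the steps between low FPKM values. The shLDHA libraries differed more from each other (median absolute log2 difference 0.217) than the shGFP libraries did (0.125). As deposited, the median gene was lower by 0.33 on the log2 scale in shLDHA, so the FPKM were rescaled by a trimmed mean of M values (TMM), after which the median log2 fold change was -0.008. Among thyroid markers, PAX8 was at 92.57 and 65.66 FPKM in shLDHA and 99.37 and 97.39 FPKM in shGFP, whereas NKX2-1 and TSHR were at 0 in all 4 libraries and TG and SLC5A5 did not exceed 0.12 FPKM. The thyroid factors FOXE1 and HHEX fell by 0.78 and 0.70 on the log2 scale (limma, adjusted p = 0.0294 and 0.0337), with 2.33 to 2.77 FPKM in shLDHA and 4.88 to 5.83 FPKM in shGFP. The epithelial keratins KRT8 and KRT18 were at 287.58 FPKM or more in every library, whereas KRT19, EPCAM and CDH1 did not exceed 0.2 FPKM. The 5 fibroblast markers summed to 9.48 and 9.83 FPKM in shLDHA and 17.06 and 18.12 FPKM in shGFP. Of these, 2 were tested and 1 was called lower (log2 fold change -0.77), beside 13.0% of all tested genes. The 4 endothelial markers summed to at most 0.12 FPKM in any library. The blood markers PTPRC and CD3E were at 0 in all 4 libraries. CD68, listed as a blood marker, had 45.11 and 34.1 FPKM in shLDHA, against 30.33 and 29.9 FPKM in shGFP (log2 fold change 0.72, limma, adjusted p = 0.0143), and its part in the other results was not tested.

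Promoter windows (250 bases before to 50 after a RefSeq start, GRCh38.p14) were available for 8 of the 10 genes here, and the windows of the 3 genes that changed under TMM scaling are printed so that their base composition and motifs can be read beside the changes. Capitals mark the CRE half-site TGACG (bound by CREB and ATF factors, which recruit EP300 and CREBBP) and the ETS box CCGGAAGT, on either strand. The windows lie at chr11:65712002-65712301 for KAT5, chr2:171922211-171922510 for HAT1 and chr22:41092342-41092641 for EP300, all on the plus strand.
KAT5: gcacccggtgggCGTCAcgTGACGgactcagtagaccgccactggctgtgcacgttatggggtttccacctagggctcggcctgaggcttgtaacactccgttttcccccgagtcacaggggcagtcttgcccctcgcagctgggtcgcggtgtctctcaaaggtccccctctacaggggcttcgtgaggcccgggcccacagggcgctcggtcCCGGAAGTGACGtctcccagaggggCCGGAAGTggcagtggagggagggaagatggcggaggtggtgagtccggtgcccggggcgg
HAT1: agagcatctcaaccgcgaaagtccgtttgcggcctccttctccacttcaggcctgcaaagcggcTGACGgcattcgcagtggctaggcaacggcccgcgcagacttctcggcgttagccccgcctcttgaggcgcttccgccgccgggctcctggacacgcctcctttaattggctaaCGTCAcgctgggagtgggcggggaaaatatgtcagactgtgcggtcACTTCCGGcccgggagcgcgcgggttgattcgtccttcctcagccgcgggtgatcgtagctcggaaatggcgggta
EP300: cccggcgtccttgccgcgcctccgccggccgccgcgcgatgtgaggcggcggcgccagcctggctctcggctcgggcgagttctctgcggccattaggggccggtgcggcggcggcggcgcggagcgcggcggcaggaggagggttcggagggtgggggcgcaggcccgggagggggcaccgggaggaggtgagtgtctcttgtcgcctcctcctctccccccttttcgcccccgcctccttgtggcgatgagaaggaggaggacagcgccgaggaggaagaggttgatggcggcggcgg

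TGACG was found 3 times in the KAT5 window, 2 times in the HAT1 window and not in the EP300 window, and 24.6% of the 35116 RefSeq windows held it. Among genes that were not called, it was found 2 times for CREBBP, 2 times for KAT7 and 1 time for KAT2A, and not for KAT2B or KAT6B. CCGGAAGT was found 2 times for KAT5, 1 time for HAT1, 1 time for KAT7 and not for EP300, CREBBP, KAT2A, KAT2B or KAT6B, and 4.1% of all windows held it. In the KAT5 window 1 copy of the ETS box shares its last base, a T, with a TGACG. None of the 8 genes had a TATAAA in its windows, a motif found in 11.5% of all windows. CG dinucleotides numbered 23 in the KAT5 window, 33 in the HAT1 window and 40 in the EP300 window, against a median of 14 over all windows. The windows of the genes that were not called also lay above 14. They held 36 and 50 for CREBBP, 18 for KAT2A, 40 for KAT2B, 29, 35 and 15 for KAT6B, and 19 for KAT7. Such matches describe the letters of the windows only, and no factor binding was measured.

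Under TMM scaling, KAT5 and HAT1 rose and EP300 fell in shLDHA cells, and 7 of the 10 genes were not called at an adjusted p under 0.05. Among all tested genes, 17.9% were called higher and 13.0% lower, so that 2 higher and 1 lower of 10 is close to the share among all genes. The median log2 fold change of the 10 genes was -0.20, beside -0.008 for all tested genes. The genes at the 2 ends of the list differed in level and length: the 3 with the highest log2 fold changes (HAT1, KAT5, KAT8) have canonical transcripts of 1634, 2080 and 1495 bases and the 3 with the lowest (KAT6B, KAT6A, EP300) of 8314, 9153 and 8779 bases.

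**Figure D1:**
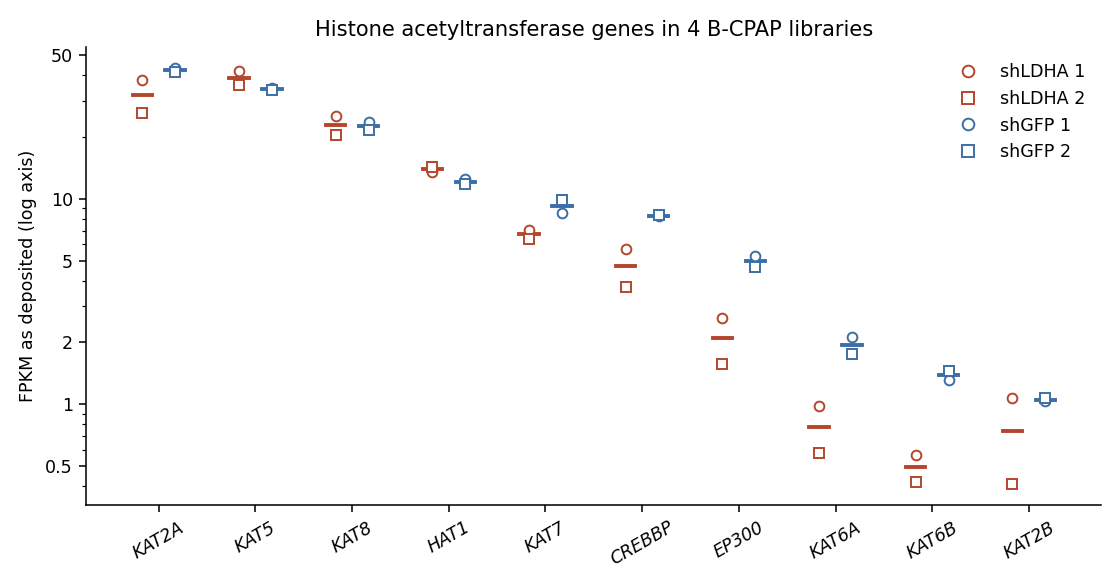
FPKM as deposited (log axis) of the 10 histone acetyltransferase genes in the 2 shLDHA and the 2 shGFP libraries, ordered by their mean in shGFP, with bars at the group means. KAT2A and KAT5 lay above 26 FPKM in every library, and KAT6A, KAT6B and KAT2B at or below 2.12 FPKM. The shLDHA points of EP300, CREBBP, KAT2A, KAT6A, KAT6B and KAT7 sat below both shGFP points, as did those of 52.8% of all tested genes.

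FPKM are values per transcript length, so the genes could be ordered by level. In shLDHA cells the order was KAT5 (38.8 ± 4.17 FPKM, mean ± SD, n = 2), KAT2A (32.0 ± 8.25), KAT8 (22.8 ± 3.41), HAT1 (13.9 ± 0.453), KAT7 (6.71 ± 0.460), CREBBP (4.70 ± 1.37), EP300 (2.10 ± 0.75), KAT6A (0.78 ± 0.283), KAT2B (0.74 ± 0.467) and KAT6B (0.495 ± 0.106). In shGFP cells the order was KAT2A (42.3 ± 1.17 FPKM), KAT5 (34.1 ± 0.608), KAT8 (22.7 ± 1.34), HAT1 (12.1 ± 0.509), KAT7 (9.17 ± 0.962), CREBBP (8.27 ± 0.0424), EP300 (4.96 ± 0.424), KAT6A (1.94 ± 0.262), KAT6B (1.39 ± 0.106) and KAT2B (1.06 ± 0.0212). KAT5 and KAT2A changed places at the top between the groups, and KAT2B and KAT6B at the bottom. In shLDHA the libraries of KAT5 and KAT2A overlapped, as did those of KAT6A and KAT2B and those of KAT2B and KAT6B, so these neighbours did not differ beyond their spread over the libraries, although KAT5 was above KAT2A within each shLDHA library. In shGFP no neighbours overlapped, although the lower KAT7 library (8.49 FPKM) came close to the higher CREBBP library (8.30 FPKM). The 10 genes summed to 136.3 and 109.71 FPKM in shLDHA and 140.23 and 135.72 FPKM in shGFP as deposited, and to 142.5 and 132.7 TMM-scaled FPKM in shLDHA, against 123.8 and 121.6 in shGFP. The direction of the sum therefore depended on the scaling, and KAT2A, KAT5 and KAT8 made up most of it.

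EP300, a coactivator recruited by many transcription factors that acetylates H3K27 and H3K18, lies on chromosome 22 (41488596 to 41576081, GRCh37, 31 exons in its canonical transcript). EP300 had 2.63 and 1.57 FPKM in the shLDHA libraries, against 5.26 and 4.66 FPKM in the shGFP libraries. Both shLDHA libraries lay below both shGFP libraries, and shLDHA library 2 was the lowest of the 4. After TMM scaling EP300 averaged 2.32 ± 0.602 in shLDHA and 4.41 ± 0.331 in shGFP (SD, n = 2 each). Its log2 fold change was -0.92 ± 0.23 (SE, 95% interval -1.53 to -0.30, limma, adjusted p = 0.0462). Without shLDHA library 2 the log2 fold change of EP300 was -0.66 (limma, adjusted p = 0.0711), where the single shLDHA library left is assumed to vary as the shGFP pair does. Without either shGFP library no gene in the table was called by limma (2064 or 2241 genes had an unadjusted p under 0.05 on the higher side and 1364 or 1453 on the lower side).

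CREBBP, the close relative of EP300 that was found through its binding of phosphorylated CREB, lies on chromosome 16 (3775055 to 3930714, minus strand, 31 exons). CREBBP had 5.67 and 3.73 FPKM in shLDHA, against 8.24 and 8.30 FPKM in shGFP. The groups did not overlap and the 2 shGFP libraries were nearly equal, while the shLDHA libraries were apart from each other. The log2 fold change of CREBBP was -0.50 ± 0.17 (95% interval -0.96 to -0.04) and was not called (limma, adjusted p = 0.0907). CREBBP was above EP300 in every library. The log2 ratio of EP300 to CREBBP was -1.08 and -1.20 in shLDHA and -0.64 and -0.82 in shGFP, a difference of -0.41. The groups of this ratio did not overlap, and the exact permutation test gave p = 0.33 (two-sided), the smallest value that 2 libraries against 2 allow, over 3 pairs of related genes.

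KAT2A (GCN5) and KAT2B (PCAF) are the catalytic subunits that alternate in SAGA and ATAC. KAT2A, on chromosome 17 (40265129 to 40273385, minus strand), had 37.87 and 26.21 FPKM in shLDHA, against 43.17 and 41.51 FPKM in shGFP. As deposited both shLDHA libraries were lower, and after TMM scaling, with 39.6 and 31.7 in shLDHA against 38.1 and 37.2 in shGFP, the groups overlapped. The log2 fold change of KAT2A was -0.09 ± 0.13 (95% interval -0.44 to 0.26, limma, adjusted p = 0.631).

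KAT2B, on chromosome 3 (20081938 to 20195896), was near the filter at 1.07 and 0.41 FPKM in shLDHA and 1.04 and 1.07 FPKM in shGFP. shLDHA library 1 had the same value as shGFP library 2 and shLDHA library 2 was below the other libraries, so the groups overlapped. With an estimated 92 and 48 fragments in shLDHA and 104 and 111 in shGFP, the log2 fold change of -0.28 ± 0.43 had an interval of -1.45 to 0.88 (limma, adjusted p = 0.638), the widest of the 10 genes. The log2 ratio of KAT2A to KAT2B was 5.02 and 5.69 in shLDHA and 5.25 and 5.15 in shGFP, with overlapping groups (exact permutation test, p = 1, two-sided).

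**Figure D2:**
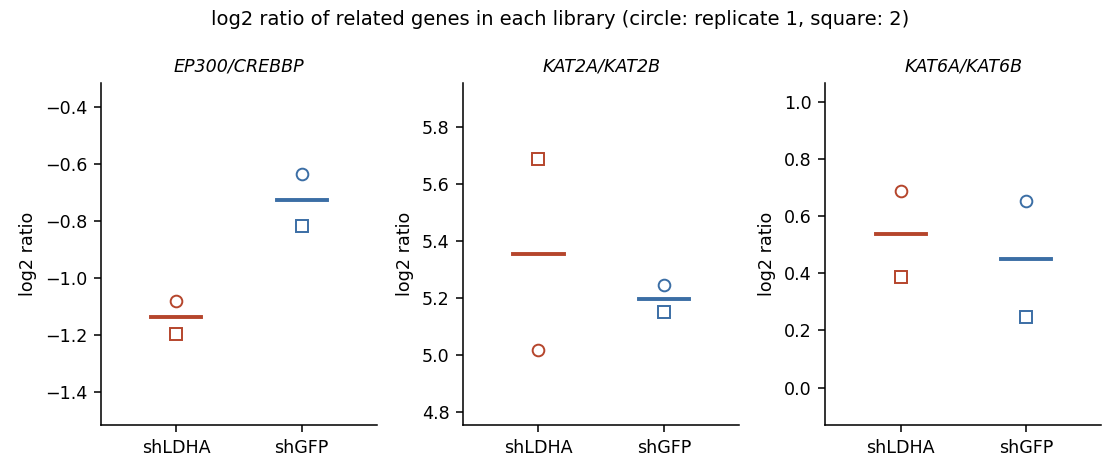
log2 ratio of EP300 to CREBBP, KAT2A to KAT2B and KAT6A to KAT6B in each library, from log2(FPKM + 0.1) on the FPKM as deposited. shLDHA is left of shGFP, with bars at the means and panels of equal height. The EP300 to CREBBP ratio was -1.08 and -1.20 in shLDHA, below the -0.64 and -0.82 of shGFP, and the groups of the other ratios overlapped.

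KAT5 (TIP60), a MYST acetyltransferase of H4 and H2A that also acetylates the kinase ATM after DNA damage, lies on chromosome 11 (65479467 to 65487075). KAT5 had 41.7 and 35.81 FPKM in shLDHA, against 34.54 and 33.68 FPKM in shGFP, and both shLDHA libraries were above both shGFP libraries before any rescaling. After TMM scaling KAT5 stood at 43.6 and 43.3 in shLDHA, against 30.5 and 30.2 in shGFP, the smallest spread of the 10 genes for its level. The log2 fold change of KAT5 was 0.52 ± 0.07 (95% interval 0.32 to 0.71, limma, adjusted p = 0.0149), or 1.43-fold. KAT5 was the only 1 of the 10 genes that was also called with length offsets, with a log2 fold change of 0.37 (limma, adjusted p = 0.0242), and it was not called on the FPKM as deposited (log2 fold change 0.18, limma, adjusted p = 0.332).

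The annotated exons of KAT5 overlap those of RNASEH2C, a subunit of ribonuclease H2 on the opposite strand, over 1439 of 3732 bases (38.6%). Whether strand was used in counting is not given for the table, so fragments in the shared bases may stand under either gene. RNASEH2C had 104.6 and 83.17 FPKM in shLDHA and 102.45 and 95.57 FPKM in shGFP. Its log2 fold change was 0.25 and it was not called, and the part of these shared bases in the KAT5 value was not tested. The other members overlapped another annotated gene over at most 10.7% of their exon bases.

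KAT6A (MOZ) and KAT6B (MORF) acetylate H3 with BRPF scaffolds and are altered by translocations in leukaemia and by mutations in developmental syndromes. KAT6A, on chromosome 8, had 0.98 and 0.58 FPKM in shLDHA, against 2.12 and 1.75 FPKM in shGFP. KAT6B, on chromosome 10 (76584685 to 76792382), had 0.57 and 0.42 FPKM in shLDHA, against 1.31 and 1.46 FPKM in shGFP. For both genes each shLDHA library was below each shGFP library, and all 4 shLDHA values were below 1 FPKM. The log2 fold changes were -0.93 ± 0.28 for KAT6A (95% interval -1.70 to -0.17, limma, adjusted p = 0.0702) and -1.03 ± 0.27 for KAT6B (95% interval -1.76 to -0.30, limma, adjusted p = 0.0512). Neither was called under TMM scaling, and both were called lower on the FPKM as deposited (limma, adjusted p = 0.0478 for KAT6A and 0.0364 for KAT6B). On the log2(FPKM + 0.1) scale a change of genes this low is understated. The log2 ratio of KAT6A to KAT6B was 0.69 and 0.39 in shLDHA and 0.66 and 0.25 in shGFP, with overlapping groups (exact permutation test, p = 0.667, two-sided).

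KAT7 (HBO1), the MYST enzyme of H3K14 and H4 that works with BRPF and JADE scaffolds and takes part in origin licensing, lies on chromosome 17 (47865986 to 47912388). KAT7 had 7.03 and 6.38 FPKM in shLDHA, against 8.49 and 9.85 FPKM in shGFP. The shLDHA libraries were lower as deposited, and after TMM scaling the groups overlapped, with 7.35 and 7.71 in shLDHA against 7.50 and 8.83 in shGFP. Its log2 fold change was -0.11 ± 0.13 (95% interval -0.46 to 0.24, limma, adjusted p = 0.549). The sign turned with length offsets, to 0.29 (limma, adjusted p = 0.193), which used a canonical transcript of 9514 bases. KAT7 has 37 annotated transcripts, and with the median of its 20 coding transcripts (3361 bases, a length chosen after the data were seen) the value was 0.08 (limma, adjusted p = 0.698).

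KAT8 (MOF), the main acetyltransferase of H4K16, lies on chromosome 16 (31125810 to 31142714). KAT8 had 25.22 and 20.4 FPKM in shLDHA, against 23.61 and 21.71 FPKM in shGFP. The shGFP libraries lay between the 2 shLDHA libraries as deposited, and after TMM scaling both shLDHA libraries (26.4 and 24.7) were above both shGFP libraries (20.8 and 19.5). The log2 fold change of KAT8 was 0.34 ± 0.09 (95% interval 0.10 to 0.58) and was not called (limma, adjusted p = 0.0529). It was 0.00 on the FPKM as deposited and 0.02 with length offsets.

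HAT1, a cytoplasmic and nuclear enzyme that acetylates newly made H4 at K5 and K12, lies on chromosome 2 (172778958 to 172848600). HAT1 had 13.56 and 14.2 FPKM in shLDHA, against 12.45 and 11.73 FPKM in shGFP, and both shLDHA libraries were higher before and after rescaling. After TMM scaling HAT1 averaged 15.7 ± 2.12 in shLDHA and 10.8 ± 0.341 in shGFP (SD, n = 2 each). Its log2 fold change was 0.53 ± 0.13 (95% interval 0.19 to 0.88, limma, adjusted p = 0.0434), or 1.45-fold. HAT1 was not called on the FPKM as deposited (log2 fold change 0.20, limma, adjusted p = 0.289), with length offsets (0.26, limma, adjusted p = 0.183) or without shLDHA library 2 (0.40, limma, adjusted p = 0.0599).

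**Figure D3:**
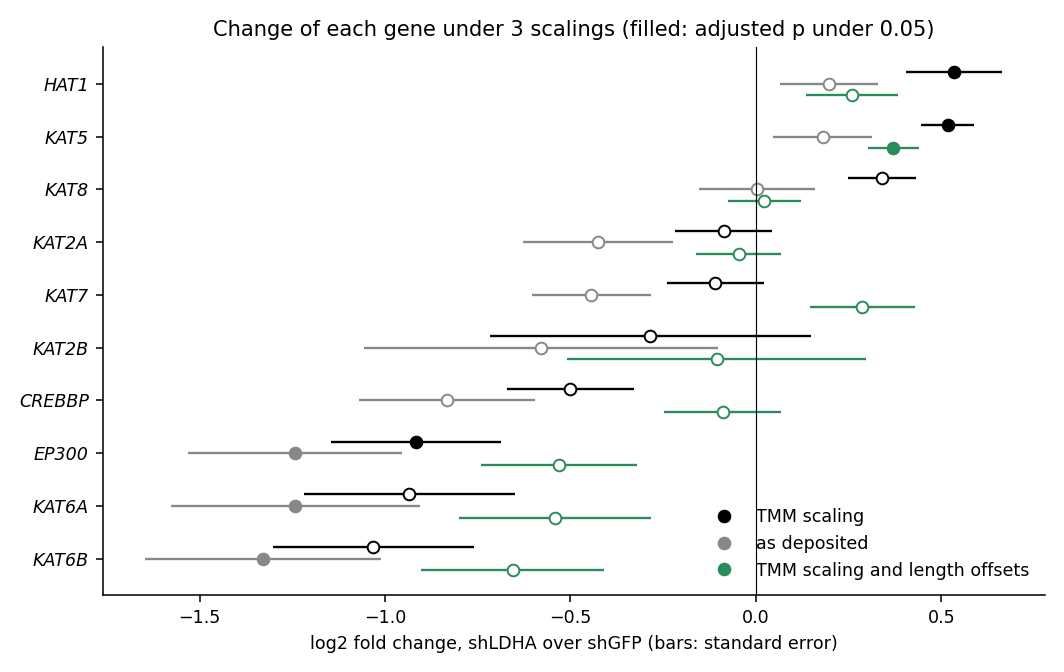
log2 fold change of shLDHA over shGFP for each gene with its standard error, under TMM scaling, on the FPKM as deposited, and under TMM scaling with length offsets, with filled points where the adjusted p was under 0.05. KAT5 was filled under TMM scaling and with length offsets, HAT1 under TMM scaling, EP300 under TMM scaling and as deposited, and KAT6A and KAT6B as deposited.

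The same genes were counted under each scaling. On the FPKM as deposited, 0 of the 10 genes were called higher and 3 lower (EP300, KAT6A, KAT6B), where 6.80% of all tested genes were called higher and 23.4% lower by limma. No member had an unadjusted p under 0.05 on the higher side there, and 5 had one on the lower side. Of all 13291 tested genes, 1482 had one on the higher side and 4693 on the lower side. By the values alone, both shLDHA libraries lay beyond both shGFP libraries for 2 members on the higher side and 6 on the lower side as deposited, where 20.0% and 52.8% of all tested genes did so. After TMM scaling this held for 3 members on the higher side and 4 on the lower side, beside 36.1% and 36.4% of all tested genes. These counts lie near the shares of all genes.

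Length was set beside each change because the fold change ran with transcript length over all genes. Across the 11919 tested genes with a length and GC content, the log2 fold change had a Spearman correlation of -0.41 with transcript length and of 0.40 with GC content, which describes genes that share 4 libraries. With the genes divided by length into 10 bins of equal size, the median log2 fold change was 0.54 in the shortest bin and -0.43 in the longest. EP300, CREBBP, KAT6A, KAT6B and KAT7 are all in the longest bin. EP300 was 0.48 below the median of that bin, KAT6A 0.50 and KAT6B 0.60 below it, whereas CREBBP was 0.07 below it and KAT7 0.32 above it. KAT8 was at the median of its bin, and KAT5 and HAT1, in the bin with a median of 0.19, were 0.33 and 0.34 above theirs.

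With length offsets, which remove in each library the smooth trend of the values on length, 1 of the 10 genes was called higher (KAT5) and 0 lower, where 16.3% of the genes were called higher and 12.2% lower. The members had 1 unadjusted p under 0.05 on the higher side and 0 on the lower side, beside 2757 and 2428 of all 11919 genes. EP300 then had a log2 fold change of -0.53 (limma, adjusted p = 0.129), CREBBP of -0.09 (0.694), KAT6A of -0.54 (0.182) and KAT6B of -0.66 (0.116). EP300, KAT6A and KAT6B thus stayed negative with smaller values, and CREBBP was near 0. CREBBP has 7 annotated coding transcripts with a median of 846 bases, far below the 10790 bases of its canonical transcript. With the median coding transcript of each gene in place of the canonical one, CREBBP was called lower at -0.72 (limma, adjusted p = 0.0435). EP300 had -0.42 (limma, adjusted p = 0.189). The value for CREBBP thus turned on the length assigned to it, and whether so short a form is the one present in these cells was not tested. With offsets for length and GC content together none of the 10 was called by limma, where 10.8% of genes were called higher and 9.37% lower. Of the 10, 3 had an unadjusted p under 0.05 on the higher side and 1 on the lower side, beside 2360 and 2277 of all 11919 genes. Whether the trend with length arose in the cells or in the libraries cannot be told apart here. In bulk RNA, less RNA per cell and fewer cells with the RNA cannot be told apart either.

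**Figure D4:**
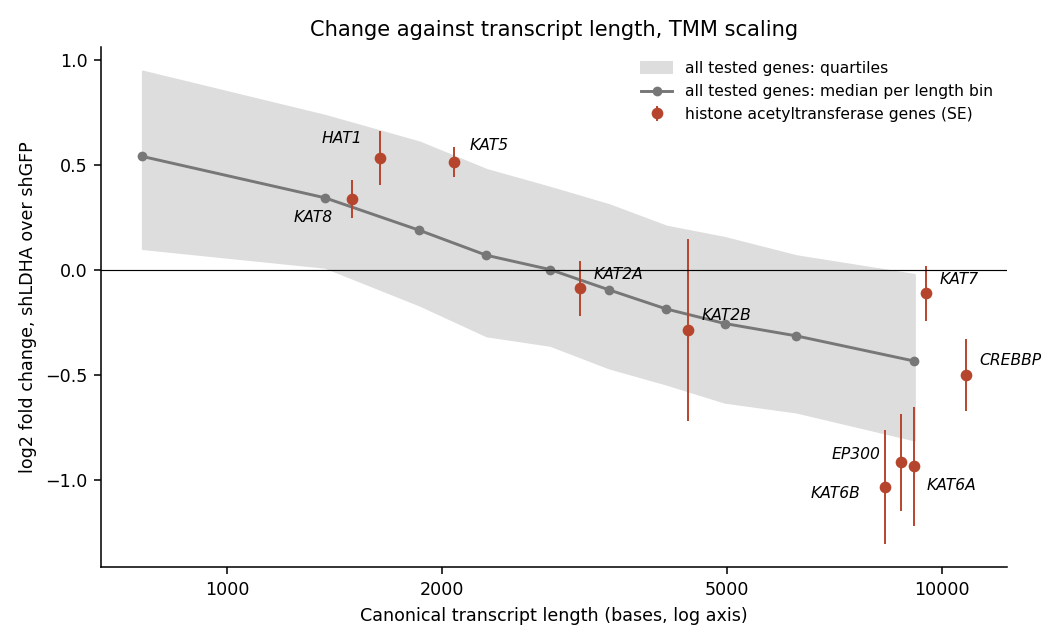
log2 fold change of shLDHA over shGFP under TMM scaling against canonical transcript length (log axis) for the 10 genes with standard errors, over the median (line) and the quartiles (band) of all tested genes in 10 bins of length. HAT1, KAT5 and KAT8 are short and positive, and EP300, KAT6A and KAT6B lie 0.48 to 0.60 below the median of the longest bin.

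The partner subunits were read next, from lists that share TRRAP, MEAF6, WDR5 and KAT14. Of 24 tested partners of KAT2A and KAT2B in SAGA and ATAC, 4 rose, 6 fell and 14 were not called, with a median log2 fold change of -0.34. Among all tested genes, 17.9% were called higher and 13.0% lower. ENY2, of the deubiquitinase module, had 93.54 and 134.89 FPKM in shLDHA, against 68.64 and 68.4 FPKM in shGFP (log2 fold change 1.05, limma, adjusted p = 0.0442). TADA3, of the acetyltransferase module itself, had 70.24 and 58.73 FPKM in shLDHA, against 49.35 and 49.53 FPKM in shGFP (0.71, limma, adjusted p = 0.00925). TAF5L, of the SAGA core, fell by 1.1 on the log2 scale and POLE3, a histone-fold protein of ATAC in this list, fell by 1.03, the largest falls of the list. For these 4 genes the groups did not overlap. TADA2A, the adaptor that binds the catalytic subunit in ATAC, fell by 0.95 (limma, adjusted p = 0.0281).

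TRRAP, the scaffold that activators bind in both SAGA and the TIP60 complex, had 1.87 and 1.77 FPKM in shLDHA, against 4.11 and 4.05 FPKM in shGFP (log2 fold change -0.80 ± 0.16, limma, adjusted p = 0.0276). Of 17 tested TIP60 partners, 2 rose, 2 fell and 13 were not called, with a median of 0.07, where 17.9% of all tested genes were called higher and 13.0% lower. DMAP1 rose by 0.79 on the log2 scale and the ATPase RUVBL2 by 0.60. EP400, the remodelling ATPase of the complex, fell by 0.76, and TRRAP was the other fall. With length offsets TRRAP (-0.38, limma, adjusted p = 0.148) and EP400 (-0.34, limma, adjusted p = 0.129) were not called. DMAP1 and RUVBL2 were still called higher. RUVBL2 was the most abundant of these, with 470.28 and 413.44 FPKM in shLDHA and 366.94 and 370.9 FPKM in shGFP.

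Of the 9 scaffolds and partners of KAT6A, KAT6B and KAT7, 6 were not called, with a median of -0.20. ING4, a reader of H3K4 methylation, rose by 0.51, and the scaffolds BRPF1 and BRPF3 fell by 0.78 and 0.55. With length offsets BRPF1 was still called lower (-0.57, limma, adjusted p = 0.0489). BRPF3 (-0.25, limma, adjusted p = 0.247) and ING4 (0.245, limma, adjusted p = 0.172) were not called. Of the 11 MSL and NSL partners of KAT8, 1 rose, 7 fell and 3 were not called, with a median of -0.47, beside 17.9% of all tested genes called higher and 13.0% lower. OGT, the O-GlcNAc transferase of the NSL complex, had 4.86 and 4.28 FPKM in shLDHA, against 13.9 and 14.13 FPKM in shGFP (log2 fold change -1.26 ± 0.10, limma, adjusted p = 0.00791). MSL2 had 1.95 and 1.52 FPKM in shLDHA, against 3.81 and 5.63 FPKM in shGFP (-1.05, limma, adjusted p = 0.0407). MCRS1 was the 1 partner that rose, with 107.22 and 88.9 FPKM in shLDHA and 84.68 and 88.68 FPKM in shGFP (0.51, limma, adjusted p = 0.0162), and as deposited both shLDHA libraries of it were still above shGFP. With length offsets 5 of these 11 genes were lower and 1 was higher (median -0.40), and with length and GC offsets 2 were lower and 0 higher (median -0.30).

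RBBP7 (RbAp46), the WD40 partner of HAT1, had 31.86 and 30.75 FPKM in shLDHA, against 48.97 and 45.8 FPKM in shGFP, and was not called (log2 fold change -0.26, 95% interval -0.51 to -0.01, limma, adjusted p = 0.0987). HAT1 and RBBP7 thus had fold changes of opposite sign, HAT1 positive and RBBP7 negative. Of the 7 genes for this partner and for chaperones of H3 and H4, 0 rose, 2 fell and 5 were not called. Among all tested genes, 17.9% were called higher and 13.0% lower. At an unadjusted p under 0.05 in limma, 0 of the 7 were on the higher side and 5 on the lower side. Of all 13291 tested genes, 3325 and 2875 were. CHAF1B, of the chromatin assembly factor, fell by 0.63 and RBBP4 by 0.41. With length offsets CHAF1B was still called lower (-0.45, limma, adjusted p = 0.0289) and RBBP4 was not called (-0.05, limma, adjusted p = 0.647).

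Of 11 tested factors that bind or recruit EP300 and CREBBP, 1 rose, 2 fell and 8 were not called, with a median of 0.14. Among all tested genes, 17.9% were called higher and 13.0% lower. CREB1, the factor through which CREBBP was named, had 2.7 and 2.09 FPKM in shLDHA, against 5.70 and 7.54 FPKM in shGFP (log2 fold change -1.1 ± 0.20, limma, adjusted p = 0.0233). MAML1, the Notch coactivator that recruits EP300, fell by 0.59, and CITED2, which binds the CH1 domain of both enzymes, rose by 0.43. With length offsets CREB1 (-0.69, limma, adjusted p = 0.0655) and MAML1 (-0.305, limma, adjusted p = 0.135) were not called. CITED2 was still called higher (0.35, limma, adjusted p = 0.0212). CITED2 was at 137.18 and 113.46 FPKM in shLDHA and 117.67 and 116.48 FPKM in shGFP, so that its groups overlapped as deposited. Of 10 other proteins described to acetylate histones, 0 rose, 2 fell and 8 were not called, with a median of -0.75. None of these 10 had an unadjusted p under 0.05 in limma on the higher side and 5 had one on the lower side. Of all 13291 tested genes, 3325 and 2875 had one. GTF3C4, a subunit of TFIIIC, fell by 1.03 and NAA40, which acetylates the N terminus of H4 and H2A, by 0.90. With length offsets both were still called lower, and the median of the 10 was -0.42.

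**Figure D5:**
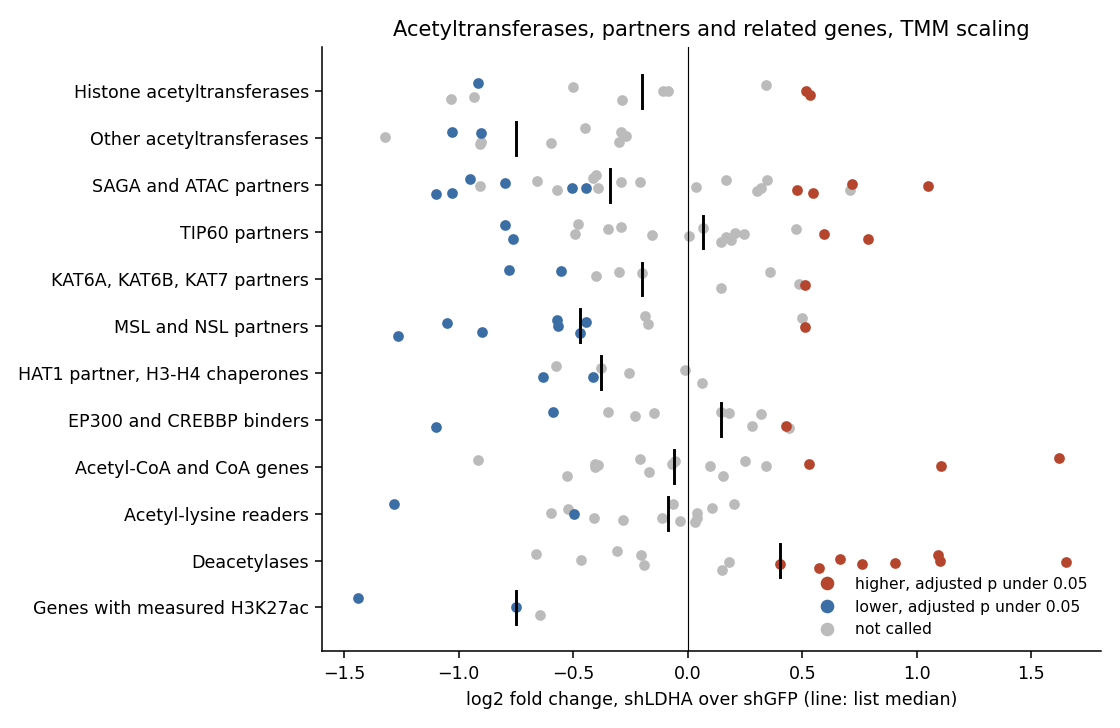
log2 fold change of shLDHA over shGFP under TMM scaling for every tested gene of the acetyltransferase list and of 11 related lists, with a line at each median. The medians of the deacetylases (0.40) and of the other acetyltransferases (-0.75) lie on opposite sides of 0, and 8 deacetylase points are called higher.

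Histone deacetylases and nuclear sirtuins were counted beside the 10 enzymes. Of 15 tested, 8 rose, 0 fell and 7 were not called, with a median of 0.40, beside 17.9% of all tested genes called higher and 13.0% lower. In this list 8 were on the higher side and 1 on the lower side at an unadjusted p under 0.05 in limma. Of all 13291 tested genes, 3325 and 2875 were. HDAC5, a class IIa deacetylase, had 18.79 and 13.91 FPKM in shLDHA, against 7.52 and 5.51 FPKM in shGFP (log2 fold change 1.65 ± 0.19, limma, adjusted p = 0.0108). SIRT2, an NAD-dependent deacetylase of tubulin and of H4K16, had 52.45 and 52.86 FPKM in shLDHA, against 31.74 and 30.17 FPKM in shGFP (1.1 ± 0.10, limma, adjusted p = 0.00889). In both genes each shLDHA library was above each shGFP library. HDAC2, HDAC6, HDAC10, HDAC11, SIRT6 and SIRT7 also rose. HDAC1, HDAC3, HDAC4, HDAC7, HDAC8, HDAC9 and SIRT1 were not called. On the FPKM as deposited 4 of the 15 were higher and 2 lower with a median of 0.06, where 6.80% of all tested genes were higher and 23.4% lower. With length offsets 8 were higher and 0 lower (median 0.31), with length and GC offsets 5 and 0 (median 0.16), and with the median coding transcript 7 and 1 (median 0.14).

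Acetyl-CoA is the substrate of all 10 enzymes. Of 16 genes that make or carry acetyl-CoA or coenzyme A, 3 rose, 0 fell and 13 were not called, with a median of -0.06. Among all tested genes, 17.9% were called higher and 13.0% lower. At an unadjusted p under 0.05 in limma, 3 of the 16 were on the higher side and 4 on the lower side. Of all 13291 tested genes, 3325 and 2875 were. SLC25A1, the mitochondrial citrate carrier that feeds cytosolic acetyl-CoA, had 254.26 and 243.11 FPKM in shLDHA, against 100.01 and 104.12 FPKM in shGFP (log2 fold change 1.62 ± 0.09, limma, adjusted p = 0.00786). CRAT, which moves acetyl groups between carnitine and coenzyme A, rose by 1.1, and ACSS2, which makes acetyl-CoA from acetate, by 0.53. ACLY, which cleaves citrate to acetyl-CoA, had 103.91 and 87.32 FPKM in shLDHA, against 127.74 and 124.74 FPKM in shGFP, and was not called after scaling (log2 fold change -0.07, 95% interval -0.25 to 0.11, limma, adjusted p = 0.469). On the FPKM as deposited 2 of the 16 were higher and 4 lower, where 6.80% of all tested genes were higher and 23.4% lower. ACSS2 was not called there (log2 fold change 0.19, limma, adjusted p = 0.255). With length offsets 3 of the 16 were higher and 0 lower, beside 16.3% and 12.2% of all genes. Length and GC offsets gave 3 and 0 again, beside 10.8% and 9.37%, and the largest log2 fold change of the list was 0.87. Metabolites were not analysed here.

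Of 14 tested readers of acetylated lysine, 0 rose, 2 fell and 12 were not called, with a median of -0.09. Among all tested genes, 17.9% were called higher and 13.0% lower. At an unadjusted p under 0.05 in limma, 0 of the 14 were on the higher side and 3 on the lower side. Of all 13291 tested genes, 3325 and 2875 were. PBRM1, the bromodomain subunit of the PBAF remodeller, had 0.95 and 1 FPKM in shLDHA, against 3.30 and 3.02 FPKM in shGFP (log2 fold change -1.28 ± 0.20, limma, adjusted p = 0.0188). BRD9, a bromodomain subunit of another SWI/SNF form, fell by 0.50.

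The study had measured H3K27 acetylation at CTNNB1, RHOB and TGFBR1, a list it chose in view of these libraries, so their RNA is not independent evidence. RHOB, a small GTPase, had 30.13 and 24.04 FPKM in shLDHA, against 92.41 and 92.61 FPKM in shGFP (log2 fold change -1.44 ± 0.08, limma, adjusted p = 0.00786). CTNNB1, which encodes beta-catenin, had 46.87 and 38.41 FPKM in shLDHA, against 96.74 and 84.15 FPKM in shGFP (-0.75 ± 0.09, limma, adjusted p = 0.0127). TGFBR1, a TGF-beta receptor, had 0.80 and 0.85 FPKM in shLDHA, against 1.53 and 1.87 FPKM in shGFP. Its groups did not overlap and it was not called (log2 fold change -0.64, 95% interval -1.33 to 0.05, limma, adjusted p = 0.123). EP300, the member called lower, had a log2 fold change of -0.92 under TMM scaling, between those of RHOB and CTNNB1. KAT6A (-0.93) and KAT6B (-1.03), which were not called, also lay between those of RHOB and CTNNB1. A link of any member to these genes was not tested. With length offsets EP300 (-0.53) and KAT6A (-0.54) no longer lay between RHOB and CTNNB1, and KAT6B (-0.66) still did. None of these members was called there. RHOB then had -1.52, CTNNB1 -0.645 and TGFBR1 -0.32.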

How the data were processed

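RNA-Seq of 4 libraries (2 shLDHA, 2 shGFP) was analysed from the table the authors deposited, whose values are FPKM with 2 decimals. According to the methods, reads were trimmed (Trim Galore), aligned to hg19 (STAR), counted per gene (HTSeq, annotation GENCODE v19) and normalized by TMM, whereas HISAT2 and hg38 are what the submitters' processing notes give beside Trim Galore. The build and the counting behind the table are not given in the sources used here. FPKM are not counts, so no count test was run. The FPKM were scaled by an unweighted trimmed mean of M values (30% of M and 5% of A removed per tail). limma 3.58.1 (R 4.3.3) was run on log2(FPKM + 0.1), with a variance trend, 2 residual degrees of freedom and Benjamini-Hochberg adjustment over all 13291 rows that reached 0.5 FPKM in 2 or more libraries. Before that, 224 rows without a name and 27 with a date for a name were left out. Fold changes are on this log2(value + 0.1) scale, which understates changes of low genes.

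The 10 genes and the lists of partners were chosen with earlier results of these data known. Of 144 list entries, 143 matched a row. The genes named are LDHA, the 10 members, up to 2 rises and 2 falls of the largest size in each list among those at adjusted p under 0.05 with a mean of at least 1 FPKM (otherwise the 2 with the lowest p), TRRAP, RBBP7, ACLY, ACSS2, and the 3 genes with measured histone acetylation. RNASEH2C was named after its exons were seen to overlap KAT5. Outside this rule, TADA2A, the remaining deacetylases and sirtuins, and some of the cell type markers were also named. Lengths, GC content and exons came from GENCODE v44 lifted to GRCh37 by symbol (89.7% of tested rows), and length offsets used splines with 5 degrees of freedom. Depth was estimated from the steps of low FPKM values of genes with known length (81.7% to 85.4% of the values used came within 0.15 of a whole fragment), so fragment numbers are approximate. Figures were drawn with matplotlib 3.10.9. The fit was tested on simulated data.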

Additional observations from a re-analysis of the deposited data

How the results depend on the processing

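Calls of the 10 genes moved with most settings (limma, adjusted p under 0.05), and 0 higher with 3 lower was found on the FPKM as deposited and 0 with 5 on totals made equal (TPM). Pseudocount 1 gave 2 higher and 2 lower, and no filter 1 and 0, as did length offsets. Length and GC offsets gave 0 and 0. No variance trend gave 1 and 1 (KAT5 higher and KAT6B lower, with EP300 at an adjusted p of 0.0613 and HAT1 at 0.0726 in limma). Length offsets on the median coding transcript, a choice made after seeing the data, gave 1 and 1 (KAT5 higher and CREBBP lower, with CREBBP set at 846 bases). A filter of 1 FPKM in all libraries gave 3 and 1, and left KAT2B, KAT6A and KAT6B untested. Leaving out 1 library gave 0 to 2 higher and 0 to 2 lower. The lone library of a group is then assumed to vary like the other group. Without either shGFP library no gene of the table was called (at an unadjusted p under 0.05, 2064 and 2241 were on the higher side and 1364 and 1453 on the lower side), and over all 4 omissions 0 to 2666 genes were called higher and 0 to 1739 lower.

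Over all 13291 tested genes the counts were 2383 higher and 1722 lower, against 904 and 3114 as deposited and 708 and 4603 as TPM. Pseudocount 1 gave 2397 and 1763, and no variance trend 1712 and 1547. Of 11919 genes, length offsets gave 1939 and 1450, length and GC offsets 1292 and 1117, and the median coding transcript 2127 and 1631. The filter of 1 FPKM in all libraries gave 2456 and 1693 of 10089 genes, and no filter 1648 and 998 of 22087. The share of calls that were higher was 58.1%, and 22.5% as deposited.

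Signs turned for KAT8 as TPM (-0.15) and with length and GC offsets (-0.08), for KAT7 with length offsets (0.29), length and GC offsets (0.39) and the median coding transcript (0.08), for KAT2B with length and GC offsets (0.05) and for KAT2A with the median coding transcript (0.07). Leaving out 1 library gave -0.25 to 0.07 for KAT2A, -0.80 to 0.23 for KAT2B and -0.23 to 0.01 for KAT7. None of these values passed the test, and the cause was not tested.

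The labels number the libraries 1 and 2 in each group but do not pair them, and same-numbered libraries deviated together only weakly (r = 0.118 over genes, 2 pairs). With a replicate block 1 member was higher (KAT5) and 1 lower (EP300), HAT1 had an adjusted p of 0.0600 in limma, and 2223 genes were higher and 1291 lower in all.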
